A study of Mus musculus with 2 samples.

Results

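The transcripts examined here belong to 10 genes: the 6 Reg genes (Reg1, Reg2, Reg3a, Reg3b, Reg3d and Reg3g) and 4 genes of transcription factors that define pancreatic acinar cells (Ptf1a, Rbpjl, Bhlha15 and Nr5a2). All 10 were found by symbol among the 24346 genes listed in whole mouse omentum, the abdominal fat sheet that carries lymphoid milky spots. They were chosen because Reg1, Reg2 and digestive enzymes were nearly absent from one of the libraries, so their differences are described and not tested. The libraries were 1 from WT mice and 1 from mice labelled DTR, called Postn-DTR here, and both genotypes had received diphtheria toxin (DT) 5 days earlier. Postn-DTR mice were heterozygotes with the DT receptor placed in the first coding exon of Postn, made in C57BL/6 zygotes, so that DT kills cells using the Postn promoter wherever these are. Age and sex were not given in the sources used here, nor was the number of mice per library. With 1 library per genotype no difference has a replicate check and no p-value is given.

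Acinar cells are the enzyme-producing cells of the exocrine pancreas, which lies beside the omentum. They package digestive proenzymes into zymogen granules, together with small secreted lectins of the Reg family that are known to increase in pancreatitis and, for the Reg3 members, to act against bacteria in the gut. Their identity rests on the PTF1 complex, in which the basic helix-loop-helix protein PTF1A pairs with an E protein and with RBPJ or its pancreatic relative RBPJL. BHLHA15 (also called MIST1) scales up the secretory machinery of acinar cells and of plasma cells, and the nuclear receptor NR5A2 cooperates with PTF1 at enzyme genes.

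FPKM, the deposited unit, scales fragments to transcript length and to the mapped fragments of a library. Reads behind each value were estimated from the spacing of low values, which gave 23200000 (WT) and 23800000 (Postn-DTR) fragments, and the intervals below are exact 95% Poisson intervals on those estimates, which cover counting error alone. The targeted gene Postn stood at 58.3 FPKM in the WT library against 16.2 in the other. Omental tissue was recognised in both by the adipocyte gene Adipoq (955 and 636) and the mesothelial gene Upk3b (212 and 182), and of 9 such markers compared 1, Lrrn4, was at least 2-fold lower in Postn-DTR. In pairs of values WT comes first. Changes are differences of log2(FPKM + 1), Postn-DTR minus WT, for genes averaging 1 FPKM or more. This scale understates changes of low genes.

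Of the 10 genes 8 reached this minimum, and 7 of them were at least 2-fold lower in the Postn-DTR library, while 0 were at least 2-fold higher. Over all 13127 genes compared, 3.12% were at least 2-fold lower and 3.88% at least 2-fold higher. Since the genes were chosen on this contrast, nothing is read from the difference between these shares. The median change was -2.61 for the 8 genes and 0.02 for all genes. The 410 lower and 509 higher genes of the whole table became 821 and 305 when both libraries were scaled to the same total with acinar genes left out of it (equal totals below). That scaling moved the median of all genes by -0.31, and the count of 7 was the same. The 8 genes did not behave as one set. Reg1 and Reg2 were abundant in WT and nearly absent in Postn-DTR, Reg3a, Reg3b and Reg3d had low levels in WT and a few reads or none in Postn-DTR, Rbpjl and Nr5a2 were lower but still detected, and Bhlha15 had similar levels in both.

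**Figure D1:**
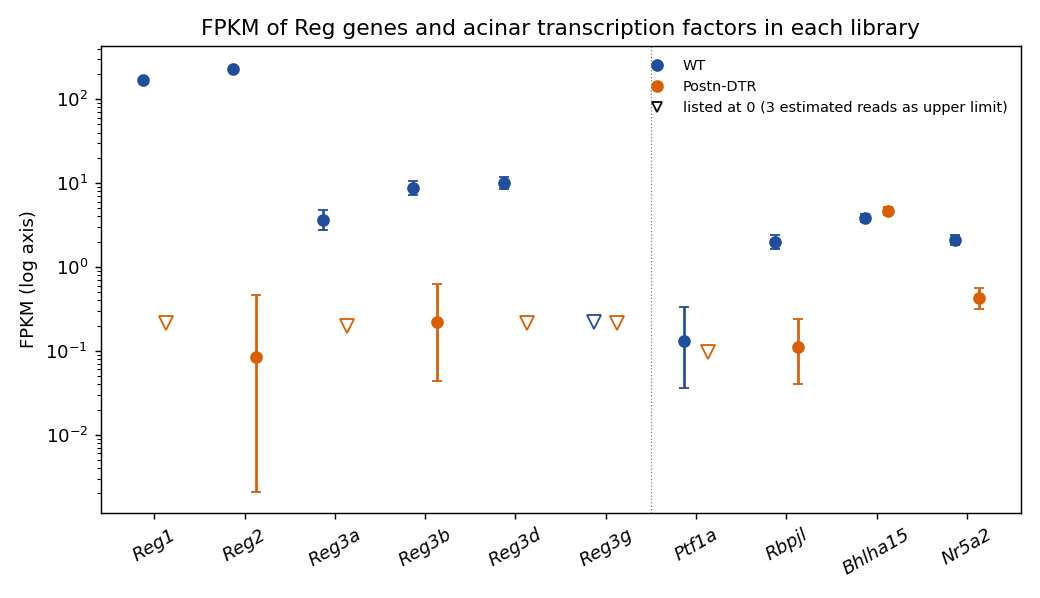
FPKM (log axis) of the 6 Reg genes and 4 transcription factors in the WT (blue) and Postn-DTR (orange) libraries, 1 library each, with exact 95% Poisson intervals on the estimated reads. Open triangles mark genes listed at 0, drawn at the FPKM of 3 estimated reads. Reg1 and Reg2 stand above 100 in WT and under 1 in Postn-DTR, whereas the values of Bhlha15 lie close together.

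Reg1 and Reg2, which encode lectins secreted by acinar cells, carried 94.7% of the summed FPKM of the family in the WT library. Reg1 (ENSMUSG00000059654, chromosome 6, 78422711 to 78428667, plus strand of GRCm38) stood at 171 FPKM in WT (interval 164 to 178, about 2294 reads) and was listed at 0 in Postn-DTR. It ranked 441 among all genes in the WT library. Taking 3 reads as the limit that a count of 0 allows (an FPKM of 0.218), Reg1 was at least 785-fold lower in Postn-DTR. Reg2 (ENSMUSG00000023140, chromosome 6, 78395623 to 78408106, plus strand) stood at 232 FPKM in WT (interval 223 to 241) and at 0.0846 in Postn-DTR. The latter corresponded to 1 estimated read against 2731, a ratio of 2737 with a counting interval from 502 to 110698. Both genes were thus abundant in one library and at the edge of detection in the other.

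In none of the 6 Reg genes was any stretch of 50 bases of the annotated transcripts shared with a transcript of another gene. In the WT library Reg2 was 1.36 times as abundant as Reg1 per transcript length, and their intervals did not overlap. By Euclidean distance of log2(FPKM + 1) over the 2 libraries, the 3 genes outside the set nearest to Reg2 were Cel (225 and 0.0678), 2210010C04Rik (278 and 0.171) and Pnliprp1 (192 and 0.176), and Pnliprp1 and Cel were also the nearest to Reg1. Cel encodes carboxyl ester lipase and Pnliprp1 a pancreatic lipase-related protein. These neighbours of Reg1 and Reg2 were on the acinar gene lists. The distance uses the same values on which the genes and lists were chosen, so nothing is read from this.

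The sequences before the start sites of Reg1 and Reg2 are shown because each holds the paired letters that the PTF1 complex is known to bind, an E-box (CANNTG) followed by a TC box (TTCCCA). Rbpjl, itself a subunit of the complex, holds the pair on the other strand, and Reg3d is shown as a gene that was also lower in Postn-DTR and holds no such pair. They come from RefSeq on GRCm38.p6, which has the coordinates of mm10, are written 5′ to 3′ along the gene, stop before any annotated exon, and carry the E-box and the TC box of each pair in capitals. The windows are chr6:78425733-78425929 (plus strand) for Reg1, chr6:78404905-78405154 (plus) for Reg2, chr2:164402944-164403140 (plus) for Rbpjl and chr6:78378866-78379115 (minus) for Reg3d. The RefSeq starts of Reg1, Reg2, Reg3b and Rbpjl lie inside the longer GENCODE gene spans given here, and the printed stretches of Reg1 and Rbpjl stop 53 bases before their RefSeq start.
Reg1: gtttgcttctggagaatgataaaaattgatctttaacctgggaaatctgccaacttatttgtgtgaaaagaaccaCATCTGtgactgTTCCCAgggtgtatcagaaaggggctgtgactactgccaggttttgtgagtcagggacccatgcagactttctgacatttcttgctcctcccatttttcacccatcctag
Reg2: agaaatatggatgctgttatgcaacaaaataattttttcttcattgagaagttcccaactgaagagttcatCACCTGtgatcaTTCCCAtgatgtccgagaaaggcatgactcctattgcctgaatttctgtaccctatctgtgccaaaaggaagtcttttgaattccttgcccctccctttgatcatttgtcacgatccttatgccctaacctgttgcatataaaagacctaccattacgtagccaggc
Rbpjl: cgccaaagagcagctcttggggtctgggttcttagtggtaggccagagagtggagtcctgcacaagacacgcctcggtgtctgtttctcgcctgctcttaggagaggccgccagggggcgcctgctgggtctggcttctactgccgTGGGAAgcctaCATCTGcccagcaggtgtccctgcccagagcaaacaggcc
Reg3d: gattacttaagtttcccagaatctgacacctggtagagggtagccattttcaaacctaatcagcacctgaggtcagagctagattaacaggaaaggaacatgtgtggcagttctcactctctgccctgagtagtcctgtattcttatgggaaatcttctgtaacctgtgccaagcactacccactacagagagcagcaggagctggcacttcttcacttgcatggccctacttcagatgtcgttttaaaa

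In Reg1 the pair reached from 175 to 158 bases before the RefSeq start and in Reg2 from 179 to 162, with 6 bases between the boxes in both. In Rbpjl it lay from 104 to 88 bases before the RefSeq start, which is 51 to 35 bases before the GENCODE gene start, with 5 bases between. Among 27025 genes with a promoter in the table, 62 (0.229%) held the pair on either strand with a spacing of 5 or 6 bases (CANNTGNNNNNTTCCCA or CANNTGNNNNNNTTCCCA) in the 250 bases before a start. Of the 10 genes examined 3 held it, and of 24 acinar enzyme and granule genes that reached 1 FPKM in WT and have a promoter there, the chymotrypsinogen gene Ctrb1 was the 1 that did. These spacings were chosen with the Reg promoters in view, and spacings of 3, 4, 7 or 8 bases matched none of the 10. Single boxes are common, since CANNTG occurred in 69.3% of all genes and TTCCCA in 24.1%. TATAAAA, the core promoter TATA box, was found before Reg1, Reg2, Reg3b and Reg3g and in 5.85% of all genes. TCAAGGTCA, the letters NR5A2 prefers, matched 0 of the 10 and 0.422% of all genes. TTCNNNGAA, the core of STAT sites, matched Reg3b and Reg3d and 8.13% of all genes. A match says only that these letters occur in the window.

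The 4 Reg3 genes encode the lectins known mainly from gut and inflamed pancreas, and they were far less abundant. Reg3d (ENSMUSG00000068341, chromosome 6, 78375874 to 78378865, minus strand), whose promoter is printed above, stood at 10.1 FPKM in WT (interval 8.44 to 11.9, about 138 reads) and was listed at 0 in Postn-DTR, at least 47.3-fold lower. Reg3b (ENSMUSG00000071356, 78370657 to 78373466, plus strand), also known as pancreatitis-associated protein, stood at 8.78 FPKM in WT against 0.223 in Postn-DTR. These were about 121 and 3 reads, a ratio of 39.3 with an interval from 13.8 to 203. Reg3a (ENSMUSG00000079516, 78380709 to 78383827, plus strand) stood at 3.65 FPKM in WT from about 54 reads and was listed at 0 in Postn-DTR, at least 18.4-fold lower. Reg3g, at the end of the same cluster, was listed at 0 in both libraries, where 3 reads allow an FPKM of up to 0.223 in WT and 0.217 in Postn-DTR, and no fold is given.

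The neighbours of the Reg3 genes were mostly on no acinar list. Nearest to Reg3a were Snora23 (3.83 and 0), the granule list gene Serpini2 (4.28 and 0) and Adra2a (4.11 and 0.0922). Nearest to Reg3b were Prnd (9.94 and 0.139), Ephx3 (7.23 and 0.169) and the elastase gene Cela3a (8.51 and 0). Nearest to Reg3d were Snora75 (9.75 and 0), Snora44 (9.45 and 0) and Mir8093 (10.8 and 0). Of these 9 genes Serpini2 and Cela3a were on an acinar list. Reads were not estimated for the others, among them the small RNA genes Snora23, Snora44, Snora75 and Mir8093, so their counting error is not known.

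The 6 genes lie within 98.2 kb of chromosome 6, in the order Reg3b, Reg3d, Reg3a, Reg2, Reg1 and Reg3g. In the WT library the levels formed steps that did not follow this order. Reg2 and Reg1 were above 100, Reg3d and Reg3b were near 10 with overlapping intervals, Reg3a was lower than both with an interval from 2.75 to 4.78, and Reg3g was not detected at this depth. In the Postn-DTR library the whole family summed to an FPKM of 0.308, from 4 estimated reads in Reg2 and Reg3b, against 425 in WT. Outside the cluster Reg4, a family member of the gut, was listed at 0 in both libraries. Extl3, which encodes a receptor for Reg proteins and is expressed in many tissues, was at 26.7 and 20.8, with a change of -0.35.

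**Figure D2:**
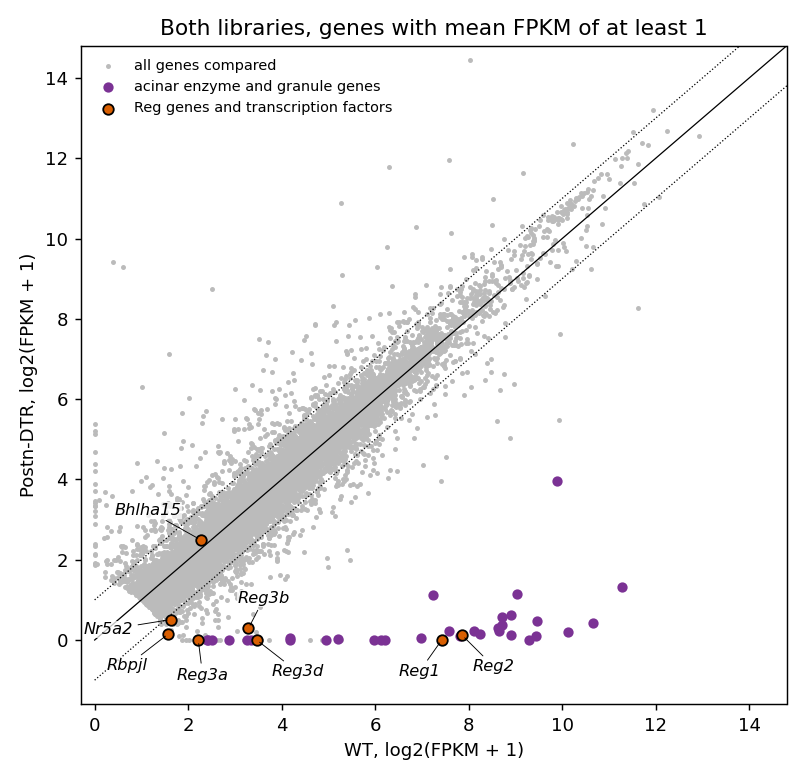
Level of each gene in the Postn-DTR library against the WT library, as log2(FPKM + 1), for the 13127 genes compared. Orange points are the 8 Reg and transcription factor genes that reached this minimum, purple points the 33 acinar enzyme and granule genes that did; the solid line marks equal levels and dotted lines 2-fold differences. Reg1 and Reg2 lie among the acinar genes along the bottom, and Bhlha15 lies on the main diagonal cloud.

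The transcription factors were scarce in both libraries, and they separated. Ptf1a (ENSMUSG00000026735, chromosome 2, 19445663 to 19447501, plus strand), the founder of the PTF1 complex, stood at 0.131 FPKM in WT (interval 0.0356 to 0.335) from 4 estimated reads and was listed at 0 in Postn-DTR. It was under the expression minimum. At this depth a difference of the size seen for the Reg genes was not detectable, since the 3-read limit in Postn-DTR corresponds to 72.8% of the WT value. Rbpjl (ENSMUSG00000017007, chromosome 2, 164403141 to 164415448, plus strand) stood at 1.98 FPKM in WT against 0.110 in Postn-DTR, about 104 and 6 reads. Its ratio was 17.9 with an interval from 7.90 to 49.6, and its change was -1.42. Rbpjl was thus lower beyond counting error, and still detected.

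Nr5a2 (ENSMUSG00000026398, chromosome 1, 136842571 to 136960448, minus strand), a nuclear receptor that the liver, gut and ovary also use, stood at 2.09 FPKM in WT (interval 1.82 to 2.38) and at 0.423 in Postn-DTR (interval 0.311 to 0.567). These were about 220 and 46 reads, a ratio of 4.93 with an interval from 3.56 to 6.90. The estimate rests on its longest curated transcript, and the gene has shorter ones. About 20.3% of the WT level of Nr5a2 was left in the Postn-DTR library. The nearest genes in the 2 libraries were Hist1h1e (2.07 and 0.429), Ret (2.03 and 0.436) and Lin7a (2.16 and 0.425), none of them on an acinar list. Those nearest to Rbpjl were H2-M11 (1.97 and 0.103), Gipr (2.08 and 0.0783) and Slc39a5 (1.97 and 0.0487).

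Bhlha15 (ENSMUSG00000052271, chromosome 5, 144190286 to 144194441, plus strand) stood at 3.83 FPKM in WT (interval 3.41 to 4.30, about 294 reads) and at 4.63 in Postn-DTR (interval 4.17 to 5.13, about 364 reads). The Postn-DTR value was 121% of the WT value with an interval from 103% to 141%. Its change of 0.22 stayed within 2-fold and was -0.06 at equal totals, so its direction depends on the scaling. Bhlha15 made up 47.7% of the summed FPKM of the 4 factors in WT and 89.7% in Postn-DTR. The genes nearest to it, Ercc4, Zfp747 and Slc25a32, differed from it by at most 0.02 in distance and were on no list. Bhlha15 was thus the 1 of the 8 genes that was not at least 2-fold lower in Postn-DTR.

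Plasma cells use Bhlha15 as acinar cells do, and their markers were therefore set beside it. Of 11 plasma cell markers compared, 4 were at least 2-fold higher in Postn-DTR and 0 lower, with a median change of 0.98, which was 0.64 with 2 genes higher at equal totals. The share of all genes compared that was at least 2-fold higher was 3.88%, or 2.32% at equal totals. Mzb1, a chaperone of antibody assembly, was at 97.8 and 244. Irf4, a factor that drives plasma cell differentiation, was at 13.3 and 41.0, and Jchain, the joining chain of IgM and IgA, at 498 and 825. Of the 11 changes 10 were above 0, or 9 at equal totals, and Slamf7 was at 7.65 and 4.96. Rab3d, a vesicle gene that Bhlha15 is known to activate, was at 26.5 and 23.7, and Xbp1, a factor of the unfolded protein response that acts upstream of it, at 167 and 330. The part of plasma cells in the Bhlha15 value was not tested. In whole tissue, fewer cells of a type and less RNA per cell cannot be told apart.

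The partners of the PTF1 complex that most tissues express stayed within 2-fold. Rbpj, the general relative of Rbpjl and the DNA-binding partner of Notch, was at 26.4 and 25.1, with a change of -0.07. It was 13.3 times as abundant as Rbpjl in WT and 227 times in Postn-DTR. The E protein genes Tcf3 (27.8 and 22.9), Tcf12 (19.0 and 19.7) and Tcf4 (13.6 and 12.5) were also within it, and the median change of the 4 partners was -0.09, or -0.42 at equal totals. Of 16 other transcription factors of the pancreas 2 reached the minimum, Xbp1 and Gata6 (18.6 and 33.1), the latter known in the omentum as a factor of peritoneal macrophages. Pdx1, Onecut1 and Mnx1 were listed at 0 in both libraries.

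To place the Reg genes among the products of the acinar cell, 40 enzyme and granule genes were listed, of which 37 were in the files and 33 were compared. All 33 were at least 2-fold lower in Postn-DTR, against 3.12% of all genes compared. The lists were drawn up with these data known, and most of these genes reached the minimum through the WT library alone. This count was therefore largely fixed beforehand, and nothing is read from it. Median changes were -7.90 for 17 proteases, -7.54 for 8 lipase, amylase and nuclease genes and -5.58 for 8 zymogen granule and inhibitor genes. The most abundant was Ctrb1 at 2490 and 1.51, 10.7 times the level of Reg2 in WT. The amylase copies Amy2a2, Amy2a4 and Amy2a5 were listed at 0 in both, and Amy2b was at 17.0 and 0. Amylase and trypsinogen copies share reads, so single members are uncertain. The Reg family contributed 3.18% of the summed FPKM of Reg, enzyme and granule genes in WT.

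The share of the WT level that was left in Postn-DTR was also read for each gene. Reg1 and Reg2 were chosen because they and digestive enzymes were nearly absent from Postn-DTR. A similar share left in them and in the enzymes follows from that choice. Among the 27 enzyme and granule genes that reached 10 FPKM in WT, 6 were listed at 0 in Postn-DTR, and in the others between 0.00932% and 1.54% was left, with a median of 0.0608%. Reg2 was within that range, at 0.0365% (interval 0.000903 to 0.199), and Reg1 was under 0.127% by the 3-read limit. For Reg3b 2.54% was left, with an interval from 0.492 to 7.23 that overlapped the range. Rbpjl at 5.58% (2.02 to 12.7) and Nr5a2 at 20.3% (14.5 to 28.1) were above it. Their intervals did not reach Cela1, the elastase gene with the highest share left (interval 1.37 to 1.72). Both factors were under 10 FPKM in WT, unlike the genes of the range. Of the enzyme and granule genes compared under 10 FPKM, Prss3, Serpini2, Ctrc and Try10 had 3-read limits (2.18%, 2.41%, 3.51% and 4.31%) inside the interval of Rbpjl. Those of Cela3a (1.93%) and Cuzd1 (0.967%) lay under it. The enzyme genes were listed with these data known, so part of the contrast with the factors follows from that choice. Counting intervals compare the 2 libraries and not the genotypes.

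**Figure D3:**
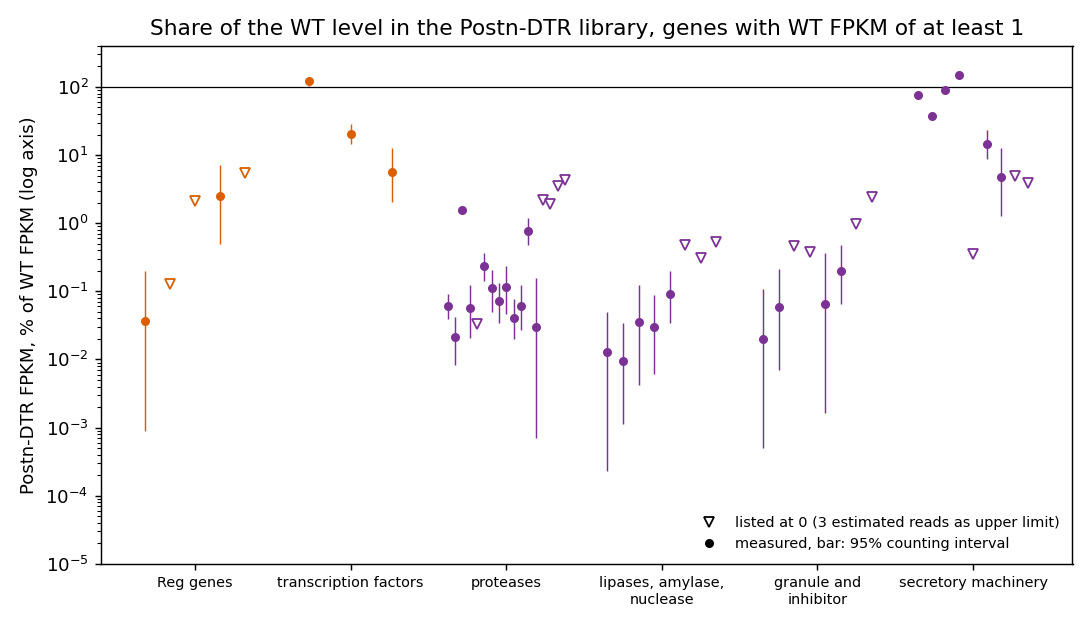
Postn-DTR FPKM as a percent of WT FPKM (log axis) for genes that reached 1 FPKM in WT, by gene list and, within a list, from the highest WT level on the left to the lowest on the right. Bars are 95% counting intervals and open triangles mark genes listed at 0, drawn at 3 estimated reads. Reg2 at 0.0365% lies within the range of the enzymes, which follows from how the genes were chosen. Rbpjl at 5.58% and Nr5a2 at 20.3% lie higher than the enzymes that reached 10 FPKM in WT, and Bhlha15 is at 121%.

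Genes of the acinar secretory route were read as well. Of 14 listed 8 were compared, and 5 were at least 2-fold lower, against 3.12% of all genes compared. Pdia2, a pancreatic protein disulfide isomerase (23.3 in WT and 0 in Postn-DTR), Aqp12, an acinar aquaporin (2.86 and 0), and Tmed6 (5.19 and 0.251) were among the 5. The others were Erp27 (7.20 and 1.05) and Gatm, an enzyme of creatine synthesis (36.1 and 13.4). The list was drawn up with these data known, and Pdia2, Aqp12 and Tmed6 reached the minimum through the WT library alone. Nothing is therefore read from this count. Rab3d, Copz2 (62.8 and 48.4) and Creb3l1 (25.3 and 37.3), which other secretory cells use too, stayed within 2-fold. Cckar, the receptor for the hormone that triggers enzyme release, was at 1.18 and 0, with a mean under the minimum.

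Few genes were abundant in WT and absent from Postn-DTR as Reg1 was. A WT level of 1 FPKM or more with a listing at 0 in Postn-DTR was found for 37 of 13096 genes (0.283%). These included Reg1, Reg3a and Reg3d, 12 enzyme and granule genes and 3 of the secretory route, and the other 19 were on none of these lists. From 100 FPKM in WT upwards there were 2, Reg1 and the trypsinogen gene Try4. Of 35 genes that reached 10 FPKM in WT and kept at most 1% of it in Postn-DTR, 26 were enzyme or granule genes. Another 3 were Reg1, Reg2 and Reg3d, and 1 was Pdia2. The other 5 were microRNA genes, Mir1291, Mir6385, Mir6392, Mir6992 and Mir8093. Reads were not estimated for these 5, so their counting error is not known and they are not set beside Reg1. With wider limits, 1 FPKM or more in WT and at most 10% of it in Postn-DTR, there were 92 genes, of which 6 were among the 10 examined, 33 were enzyme or granule genes, 4 were of the secretory route and 49 were others. These limits were chosen after the values were seen.

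Markers of other cells of the pancreas and its neighbours were also read. All 7 pancreatic duct markers compared stayed within 2-fold (Krt19 at 104 and 132, which mesothelial cells also express), and their median change was 0.37, or 0.05 at equal totals. Of 13 islet markers Ins1, Ins2, Sst and Iapp were among 7 listed at 0 in both, and the 1 compared was Isl1 (11.4 and 16.9). Under the minimum, the neuroendocrine genes Chga (1.48 and 0.346, a ratio of 4.28 with an interval from 2.34 to 8.25) and Pcsk1 (0.241 and 0.0359, about 27 and 4 reads) were lower in Postn-DTR. Mafa, another islet marker under it, was higher (0.195 and 0.425, about 12 and 26 reads). Of the intestinal markers Fabp2, Cdx2 and Sis were at 0 in both and Lgals4 (16.7 and 22.5) and Lyz1 (301 and 389) reached the minimum, neither with a 2-fold difference. No stomach marker reached it. Of 3 liver markers compared 1, Tat (0.454 and 6.03), was at least 2-fold higher. Within 2-fold, Cyp2e1 (682 and 1205) was higher and Alb (2.17 and 1.22) lower. Liver markers under the minimum went both ways. Serpina1a (0.535 and 0.0273) and Serpina1b (1.40 and 0.0678) were lower, and Apoa1 (0.0546 and 0.422) and Fga (0 and 1.61) were higher. The summed FPKM of the 37 acinar enzyme and granule genes in the files was 12925 in WT against 21.8 in Postn-DTR. A difference in the acinar tissue collected with the omentum and a difference between the genotypes cannot be told apart with these 2 libraries.

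**Figure D4:**
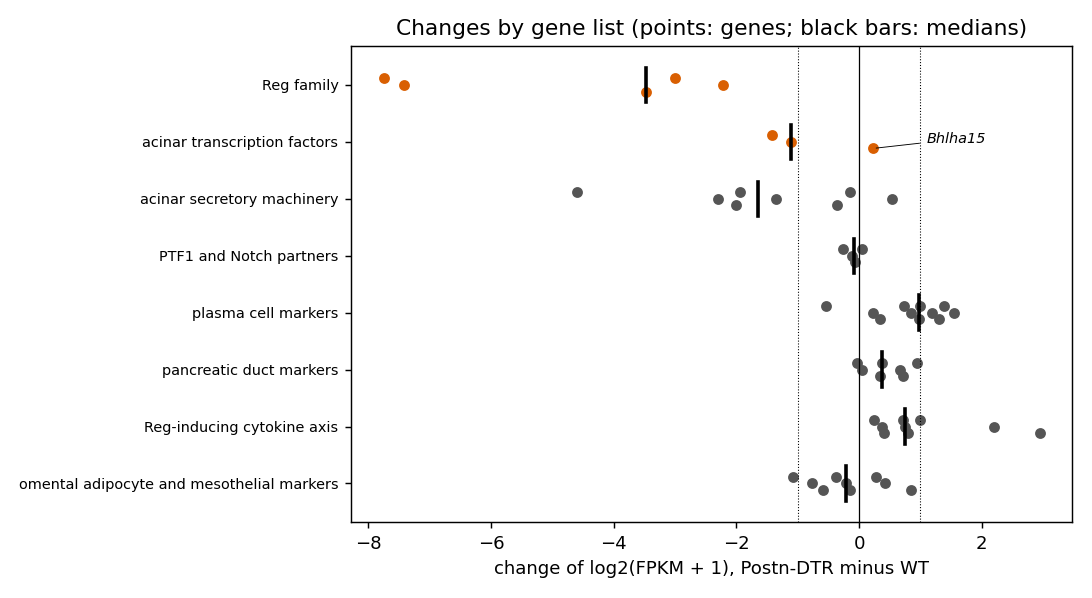
Change on the log2(FPKM + 1) scale, as Postn-DTR minus WT, for each gene compared (points) and the median (black bars) of 8 gene lists; dotted lines mark 2-fold. As deposited, the Reg family lies from -7.75 to -2.22, while the PTF1 partners lie near 0 and the plasma cell markers mostly above it.

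Cytokine signals that are known to induce Reg genes in inflamed tissue were also read, and 2 of the 9 genes compared, of 13 listed, were at least 2-fold higher in Postn-DTR. Over all genes compared, 3.88% were at least 2-fold higher. All 9 changes were above 0, or 8 at equal totals, and their median was 0.75, or 0.46. Under the minimum, Lif (0.945 and 0.457, a ratio of 2.07 with an interval from 1.40 to 3.05) was lower in Postn-DTR. Il11, also under it, was at 0.209 and 0.354 from about 9 and 15 reads. Il6 was at 0.436 and 5.58, and Socs3, a feedback inhibitor that STAT3 induces, at 17.8 and 143. Stat3 was at 66.5 and 110, and Il22ra1, the receptor subunit for IL-22, at 2.90 and 6.78. Il22 and Il17a were listed at 0 in both libraries. Reg3b and Reg3g, the family members known to respond to these signals, were at 0.223 and 0 in Postn-DTR, as given above. In WT they were at 8.78 and 0. An effect of these signals on the Reg genes was not tested.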

How the data were processed

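RNA from whole omenta was analysed in 2 libraries, WT and Postn-DTR, grouped by their genotype label. Per the labels, a miRNeasy kit gave the RNA and a TruSeq stranded mRNA kit the libraries. The authors deposited FPKM, 1 value per gene symbol. The submitters' processing notes name TopHat2 2.1.1, Bowtie2 2.2.8, SAMtools 0.1.18, Cuffdiff 2.2.1 and mm10, and the annotation was not given in the sources used here. Their sums were 542190 (WT) and 671882 (Postn-DTR), and 17319 and 17234 genes were above 0.

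Genes averaging 1 FPKM or more were compared as log2(FPKM + 1), which understates changes of low genes, and counted at 2-fold. No test across samples was possible. Depth was estimated in Python 3.11.15 from 3550 genes with 1 GENCODE M21 transcript over 800 bp. A transcript length reduced by 190 bp and 23200000 or 23800000 fragments made 73.3% of 427 low values in WT and 74.3% of 370 in Postn-DTR whole within 0.05 reads. Reads are therefore approximate, and 3 reads served as the limit for a listing at 0. The procedure was tested on simulated data. GENCODE M21 is on GRCm38, the assembly that mm10 names. Ratios of single genes are of FPKM without a pseudocount, with exact conditional binomial intervals from scipy 1.17.1. Motifs were searched in the 250 bases before RefSeq starts on both strands.

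The 10 genes and the 17 gene lists were chosen with earlier results of these data known. Genes named are the members, genes of the lists, Postn and the 3 genes nearest to each member that reached 1 FPKM in WT; the 5 microRNA genes were chosen after their values were seen. A gene near one of the members is not reported here. Alternatives were other pseudocounts, minimums, scalings and thresholds.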

Additional observations from a re-analysis of the deposited data

How the results depend on the processing

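The count of 7 genes at least 2-fold lower was the same with a pseudocount of 0.1, without a minimum, at equal totals, at an equal 75th percentile and at 1.5-fold. It was 5 at 3-fold, 4 with a pseudocount of 5 and 2 with a minimum mean of 10 FPKM, which Reg1 and Reg2 alone of the 10 reached. The count of genes at least 2-fold higher was 0 in all 8 alternatives. For the members compared, the median change of -2.61 became -5.00 and -1.10 with pseudocounts of 0.1 and 5, -2.22 without a minimum, -7.58 with a minimum mean of 10 FPKM, -2.78 at equal totals and -2.64 at an equal 75th percentile. For the acinar proteases, -7.90 became -9.56, -6.26, -7.89, -8.29, -8.16 and -7.95 under the same settings in the same order. A larger pseudocount pulls low genes towards 0 by construction. No paired analysis was possible because each genotype has 1 library, which also leaves no library to omit. The depth limits Ptf1a and Reg3g most, with at most 4 estimated reads in a library.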
